A study of Mus musculus with 8 samples.

Results

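Scx, Mkx, Tnmd, Thbs4, Tnc, Prss35 and Bmper are 7 genes of developing tendon, and their transcripts were followed in embryonic mouse diaphragm by spatial transcriptomics. They were chosen by symbol, with earlier results of these data known, from the 19465 genes of the deposited gene lists. Each symbol was found in all 8 sections. Every section was read on barcoded spots of 55 µm, 100 µm from centre to centre. A spot covers a small region that can hold muscle, tendon and other cells together, and levels below are UMIs (distinct captured molecules) of a gene in the spots of a region. Each section came from 1 diaphragm. Control 1, control 2 and control 3 are of the embryonic stage E14.5, and a further control 1 and control 2 are of E18.5, counted in days from the mating. Controls kept at least 1 working allele of CaV1.1 and of β-catenin, and which alleles each control embryo carried is not given in the sources used here. The dysgenic embryos (CaV1.1-/-, called KO) lack the calcium channel that senses voltage for excitation-contraction coupling in skeletal muscle, and there is 1 KO section at E14.5 and 1 at E18.5. The bCat cKO embryo (called cKO) is of E18.5, and in it floxed β-catenin alleles were deleted by HSA-Cre, which is driven by a promoter of skeletal muscle, so that tendon cells were not targeted. No mutant group has a second section.

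Tendon cells arise from progenitors that express Scx, which encodes the basic helix-loop-helix factor scleraxis. Mkx encodes the homeodomain factor Mohawk, which acts on type I collagen and other matrix genes of tendon. Tnmd encodes tenomodulin, a transmembrane glycoprotein made as tendon cells mature. Thbs4 (thrombospondin 4) and Tnc (tenascin-C) encode glycoproteins of the extracellular matrix that are found in tendon and at its junction with muscle. Prss35 encodes a secreted member of the serine protease family, and Bmper a secreted protein that binds bone morphogenetic proteins (BMPs). In the diaphragm, muscle fibers run from the ribs at the periphery to the central tendon.

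The genes lie apart from each other in the genome. In GRCm38 (GENCODE M21) Scx spans chr15:76457452-76459458 on the plus strand and Tnmd chrX:133850980-133865577 on the plus strand. Thbs4 spans chr13:92751590-92794818 and Tnc chr4:63959785-64047015, both on the minus strand. Prss35 (chr9:86743649-86758443) and Bmper (chr9:23223076-23485200) are on the plus strand of the same chromosome.

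Stretches of 250 bases directly before a start site of transcription are shown for Tnmd and Thbs4, which fell most in the KO, and for Tnc, which lay opposite to Tnmd within E14.5 tendon. The sequences are those of RefSeq on GRCm38, read 5′ to 3′ on the strand of the gene. Capitals mark the E-box letters CANNTG, searched because factors of the family of scleraxis bind E-boxes. The stretches are chrX:133850758-133851007 (plus strand) for Tnmd, chr13:92794819-92795068 (minus strand) for Thbs4 and chr4:64047016-64047265 (minus strand) for the farther upstream of the 2 Tnc start sites listed.
Tnmd: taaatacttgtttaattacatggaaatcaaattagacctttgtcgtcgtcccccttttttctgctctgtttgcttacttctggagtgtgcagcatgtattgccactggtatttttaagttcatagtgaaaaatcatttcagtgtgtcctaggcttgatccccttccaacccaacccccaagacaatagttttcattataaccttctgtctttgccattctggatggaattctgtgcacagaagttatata
Thbs4: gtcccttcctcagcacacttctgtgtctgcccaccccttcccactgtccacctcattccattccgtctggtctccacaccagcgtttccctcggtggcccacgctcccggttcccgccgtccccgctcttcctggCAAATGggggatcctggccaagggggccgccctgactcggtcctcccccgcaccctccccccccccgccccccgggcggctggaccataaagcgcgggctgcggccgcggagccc
Tnc: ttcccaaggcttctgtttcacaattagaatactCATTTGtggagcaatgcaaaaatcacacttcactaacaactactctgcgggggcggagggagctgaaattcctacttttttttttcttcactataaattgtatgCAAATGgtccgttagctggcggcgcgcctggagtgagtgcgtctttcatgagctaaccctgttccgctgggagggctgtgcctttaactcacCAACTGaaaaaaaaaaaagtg
CANNTG, which reads the same way on both strands, was found 0 times before Tnmd, once before Thbs4 (starting 115 bases before the start site) and 3 times before this start of Tnc (217, 113 and 21 bases before it). Among all 32851 stretches of this length listed for mouse genes, 66.2% hold at least 1 CANNTG, so that a match is common. The stretch before Tnmd holds 38.4% G and C and that before Thbs4 70.8%, around a median of 52.4% over all genes. For 5 of the 7 genes a start site was listed, and Scx and Mkx are named only.

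The sections held from 14179161 UMIs (E14.5 control 3) to 82859104 UMIs (E18.5 control 1), with medians of 15434 to 45284 UMIs per spot. Spots with at least 1000 UMIs were kept, 683 to 3460 per section. Muscle spots were those with high levels of 9 muscle genes, which include Des and Ryr1 beside genes of the sarcomere. Among the spots outside muscle, tendon-rich spots were those with high levels of Col12a1, Col11a1 and Antxr1, after spots rich in cartilage transcripts had been left out. None of the 7 genes took part in these choices. There were 56 to 274 tendon-rich spots per section. Tendon markers outside the choice, Fmod and Kera, were present in these spots. Transcripts of the muscle genes were present too, so that the spots are rich in tendon and not pure. Cartilage transcripts remained in them, with Col2a1 at 30.9 to 106 raw CPM (UMIs per 1000000 UMIs of the region) in E14.5 controls and at 427 and 515 in E18.5 controls. Cacna1s, which encodes CaV1.1, was at 16.2 raw CPM in KO muscle at E14.5 against 18.3 to 22.8 in controls, and at 31.4 against 61.2 and 63.9 at E18.5. Ctnnb1, which encodes β-catenin, was at 81.5 raw CPM in cKO muscle against 75.9 and 71.2, so that its level did not show the deletion. Where the probes lie relative to the changed parts of these genes is not given in the sources used here.

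All 7 genes were detected in every section. Over the kept spots of a section, Scx had 901 to 5836 UMIs, Mkx 169 to 1399, Tnmd 406 to 11179, Thbs4 413 to 12990, Tnc 3026 to 16320, Prss35 2026 to 5054 and Bmper 126 to 646. Mkx and Bmper are therefore read with the largest counting error. The KO at E14.5 was lowest of the sections in raw CPM for Scx, Mkx, Tnmd and Thbs4.

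In controls the transcripts of Tnmd and Prss35 were concentrated in few spots. The tendon-rich spots of E14.5 controls 1, 2 and 3 gave 16.7, 13 and 5.6% of all UMIs of the section, but 62.9, 48.3 and 36.5% of the Tnmd UMIs and 43.2, 44.1 and 30.1% of the Prss35 UMIs. At E18.5 these spots gave 2.9 and 3.3% of all UMIs, and 41.1 and 30.3% of those of Tnmd. Tnc was widely spread at E18.5, with 5.2 and 5.6% of its UMIs in tendon-rich spots and 87.3 and 81.9% in muscle spots. Most UMIs of Scx (84.9 and 79.2%) and Thbs4 (81.8 and 81.6%) also lay in muscle spots of these controls. Muscle spots gave 91.5 and 90.1% of all UMIs there, so that the muscle shares of Tnc, Scx and Thbs4 were below that of all genes. The maps of Tnmd, Thbs4 and Tnc show these patterns.

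**Figure D1:**
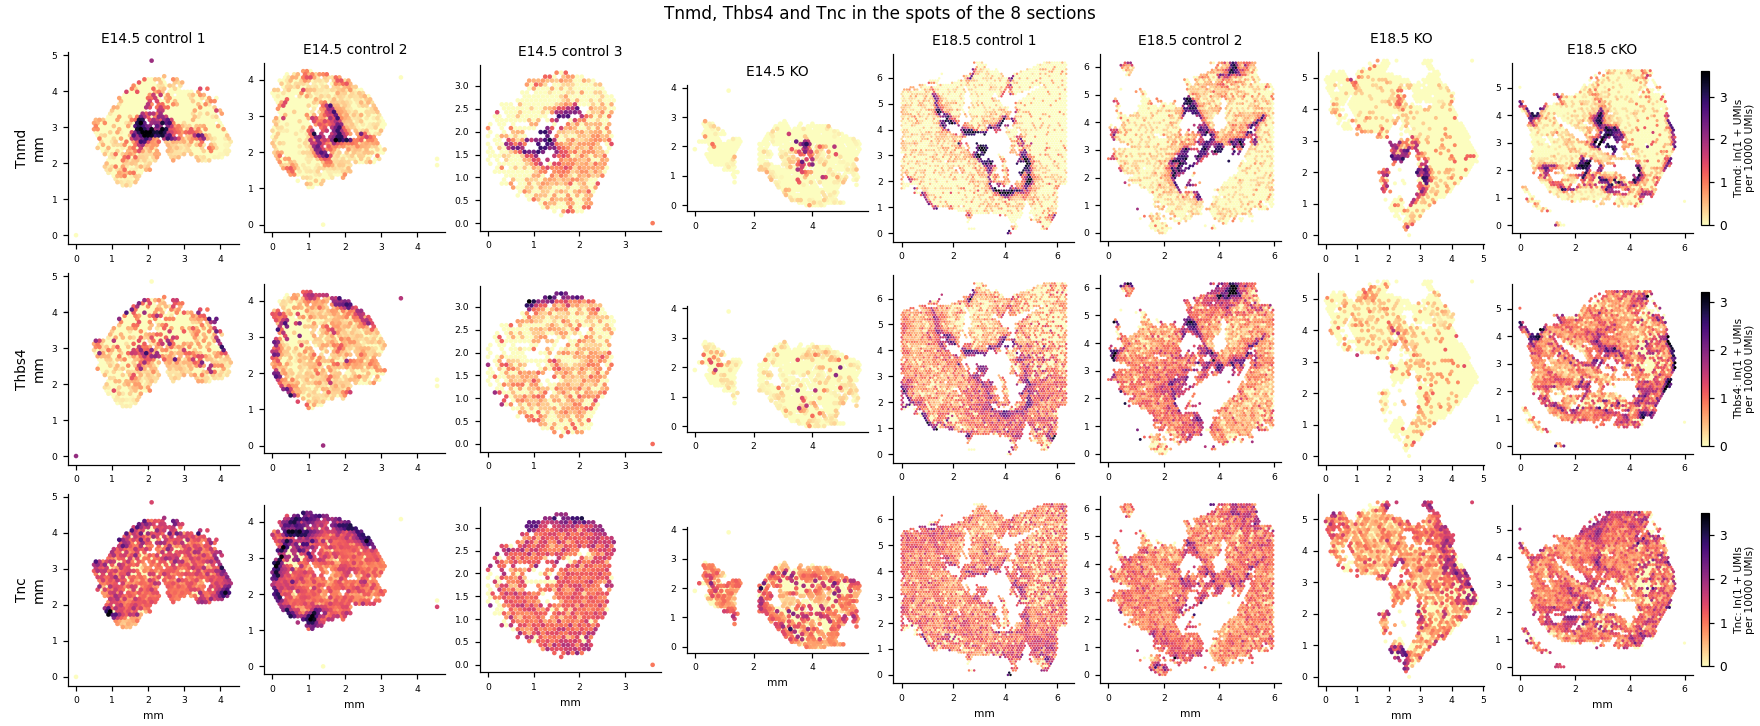
Maps of Tnmd, Thbs4 and Tnc in all 8 sections, each dot 1 spot coloured by ln(1 + UMIs per 10000 UMIs of the spot), with both axes in mm. Tnmd and Thbs4 outline the muscle of the controls and the cKO and are faint in both KO sections. Tnc also covers muscle, as does Thbs4 in the E18.5 controls and the cKO.

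Tendon-rich spots of controls were first compared between stages. The regulators Scx and Mkx, and Tnmd and Thbs4, rose from E14.5 to E18.5, whereas Bmper fell, and Tnc and Prss35 did not pass the test. These 5 of 7 calls stand beside 38.3% of all 13496 genes called in the same comparison. Levels are given as TMM CPM, the same after TMM scaling between sections. Differences are log2 fold changes ± SE from the quasi-likelihood test of edgeR on the summed UMIs of each section, and p-values are Benjamini-Hochberg adjusted over all genes tested, with 0.05 as the threshold. Every fit had 3 residual degrees of freedom, all from the controls.

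Mkx changed most. The earlier controls 1, 2 and 3 held 24.5, 25.4 and 29.3 TMM CPM of it and the later controls 1 and 2 held 137 and 176, a rise of 2.61 ± 0.16 (log2, 6.11-fold, adjusted p = 2e-06). The groups are far apart for this gene, and the E14.5 values vary little among themselves. Scx was at 111, 127 and 185 TMM CPM at E14.5 and at 241 and 320 at E18.5, a smaller rise of 1.04 ± 0.20 (adjusted p = 0.0026). Tnmd was at 388, 320 and 611 and then at 2270 and 1647 TMM CPM, 4.50-fold higher (2.17 ± 0.25, adjusted p = 1.0e-04). Thbs4 was at 108, 185 and 247 and then at 655 and 687 TMM CPM, 3.83-fold higher (1.94 ± 0.26, adjusted p = 0.00024). For each of these 4 genes all E18.5 controls were above all E14.5 controls. The tendon and muscle markers of these spots were also higher at E18.5, as given below, and the part of this was not tested.

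The other 3 genes did not share the rise. Tnc was at 497, 513 and 326 TMM CPM at E14.5 and at 390 and 370 at E18.5, and the groups overlapped (−0.24 ± 0.19, adjusted p = 0.35). Prss35 was at 402, 383 and 687 and at 459 and 429 TMM CPM, also with overlap (−0.13 ± 0.23, adjusted p = 0.69). These sums join central and peripheral spots, split as described below, whose stage changes were not tested singly. Central Tnc was at 116 to 163 TMM CPM at E14.5 and at 316 and 377 at E18.5. Peripheral Tnc was at 532 to 830 and then at 410 and 423. Central Prss35 was at 731 to 999 and then at 450 and 467, and peripheral Prss35 at 61.1 to 378 and then at 392 and 472. Bmper was at 19.7, 31.4 and 22.6 and at 7.9 and 16.9 TMM CPM (−1.02 ± 0.34, adjusted p = 0.034). Its call was lost with DESeq2 (adjusted p = 0.089), without E14.5 control 2 (−0.73, adjusted p = 0.14), without E14.5 control 3 (−1.04, adjusted p = 0.073) and without E18.5 control 1 (−0.57, adjusted p = 0.27).

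In muscle spots Scx, Mkx, Tnmd and Thbs4 rose as well and Prss35 fell, 5 of 7 beside 65.6% of 14823 genes. Thbs4 was at 45.4, 62.0 and 45.5 TMM CPM at E14.5 and at 190 and 230 at E18.5 (2.04 ± 0.15, adjusted p = 1.8e-05), nearly the change seen in tendon-rich spots. Scx rose from 39.0, 39.6 and 42.8 to 82.3 and 100 TMM CPM (1.18 ± 0.10, adjusted p = 3.4e-05). Tnmd rose from 41.5, 45.5 and 53.2 to 90.6 and 119 (1.17 ± 0.14, adjusted p = 2e-04), and Mkx from 4.9, 4.9 and 8.3 to 11.6 and 17.2 (1.28 ± 0.26, adjusted p = 0.0031). Prss35 fell from 56.1, 52.9 and 72.5 to 31.6 and 33.5 TMM CPM (−0.89 ± 0.14, adjusted p = 0.00083), although it did not differ beyond the spread in tendon-rich spots. Whether a change differed between tendon-rich and muscle spots was not tested in this fit. E14.5 controls 1 and 2 were counted by the authors with another release of their software than the other controls, and the part of this was not tested. E14.5 control 3, of the same release as the E18.5 sections, was below both E18.5 controls for Scx, Mkx, Tnmd and Thbs4 in both kinds of spots.

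**Figure D2:**
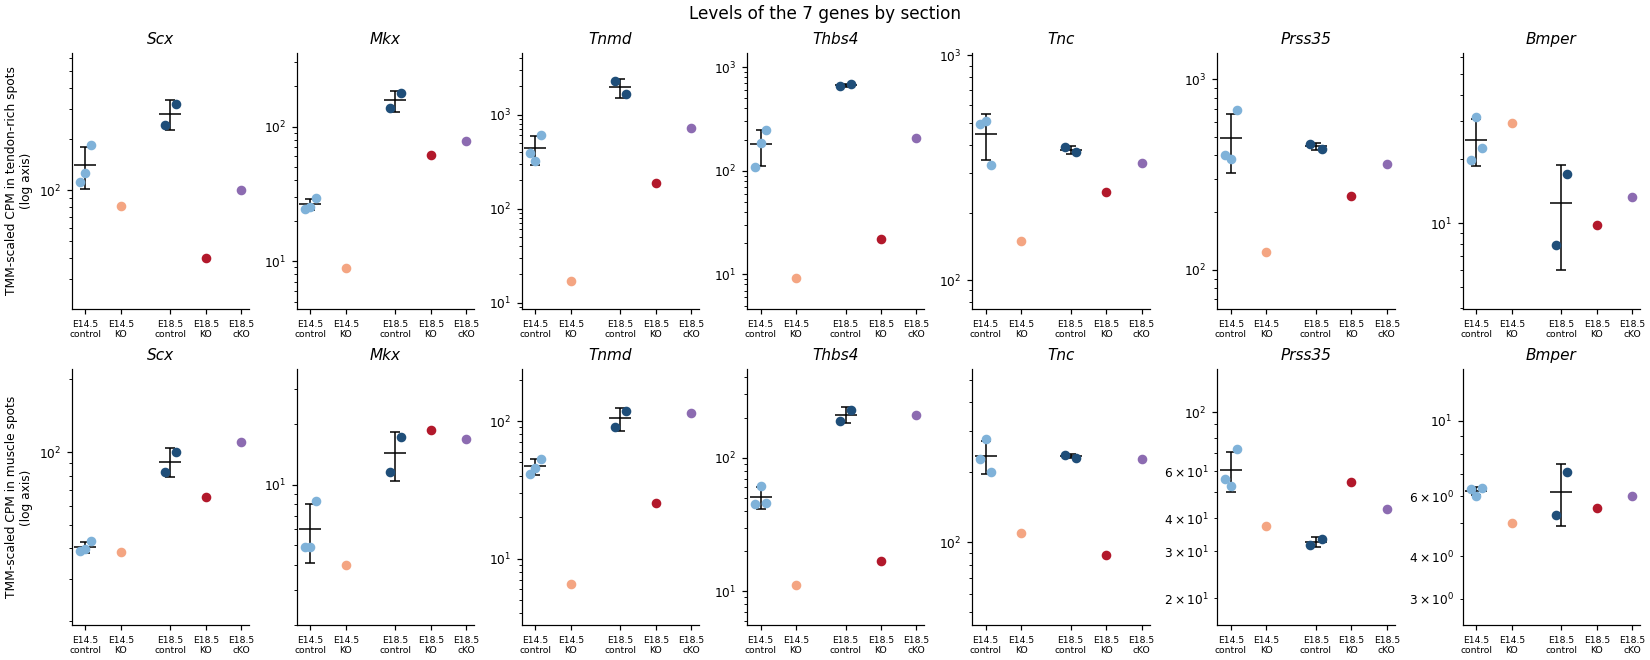
TMM CPM (log scale) of the 7 genes in tendon-rich spots and in muscle spots, 1 point per section by stage and genotype, with bars at the means of the controls. Tnmd and Thbs4 of both KO sections lie below every control of their stage in both kinds of spots, and the cKO lies below its controls in tendon-rich spots only.

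In the KO at E14.5, 5 of the 7 genes were lower in tendon-rich spots than in controls of the stage, beside 0.615% of all genes called. Tnmd was at 17.1 TMM CPM (114 UMIs), 25.4-fold below the controls given above (−4.67 ± 0.44, adjusted p = 0.0024). Thbs4 was at 9.3 TMM CPM (62 UMIs), 18.8-fold lower (−4.23 ± 0.46, adjusted p = 0.0047). For both, the KO value is far below the lowest control. Prss35 was at 125 TMM CPM (−1.96 ± 0.33, adjusted p = 0.028), Tnc at 149 (−1.59 ± 0.27, adjusted p = 0.027) and Mkx at 8.9 (−1.53 ± 0.25, adjusted p = 0.023). All 3 were below every E14.5 control. Scx was at 80.4 TMM CPM, under the 3 controls but not past the test (−0.76 ± 0.27, adjusted p = 0.32), and Bmper was at 29.4, within their range (0.23 ± 0.32, adjusted p = 0.86). The calls of Tnc and Prss35 were lost without either E18.5 control, whose spread enters the same fit (adjusted p = 0.081 to 0.089), and that of Mkx without E14.5 control 3 (adjusted p = 0.097). Scx passed without E14.5 control 1 (−0.93, adjusted p = 0.018). Without E14.5 control 3, the E14.5 controls left were counted with the same software release as this KO, and Tnmd and Thbs4 stayed called. The E18.5 controls of the other release still gave part of the spread, and the part of the release was not tested.

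KO muscle spots at E14.5 showed 3 of the 7 genes lower, beside 2.08% of all genes. Tnmd was at 6.5 TMM CPM, against 41.5 to 53.2 in controls (−2.83 ± 0.23, adjusted p = 0.0055). Thbs4 was at 11.1 against 45.4 to 62.0 (−2.20 ± 0.24, adjusted p = 0.0087), and Tnc at 109 against 201 to 277 (−1.11 ± 0.19, adjusted p = 0.033; 0.061 without E14.5 control 3). Scx, at 38.5 TMM CPM, was close to the lowest control, 39.0 (−0.07 ± 0.13, adjusted p = 0.84). Mkx, Prss35 and Bmper were below their controls at 4.0, 37.3 and 5.0 TMM CPM and did not pass the test.

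At E18.5 the KO was lower than both controls in tendon-rich spots for Scx, Mkx, Tnmd and Thbs4, 4 of 7 beside 5.77% of all genes. Thbs4 was at 22.2 TMM CPM (68 UMIs), 30.2-fold below the controls (−4.92 ± 0.47, adjusted p = 0.00042). Tnmd was at 189 TMM CPM, 10.4-fold lower (−3.37 ± 0.41, adjusted p = 0.0015). Scx was at 40.2 TMM CPM, 6.98-fold lower (−2.80 ± 0.33, adjusted p = 0.0013), which puts this section below all the other 7 for this regulator. Mkx was at 62.0 TMM CPM, below the E18.5 controls and above the E14.5 controls (−1.34 ± 0.21, adjusted p = 0.0062). Tnc at 246 (−0.63 ± 0.26, adjusted p = 0.19) and Prss35 at 244 TMM CPM (−0.86 ± 0.32, adjusted p = 0.14) were also under both controls but did not pass, and Bmper at 9.8 lay between them. Prss35 passed without E14.5 control 1 (adjusted p = 0.019) or without E14.5 control 3 (adjusted p = 0.049). Whether the KO changed a gene differently at the 2 stages was not tested in these spots.

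In KO muscle spots at E18.5 Scx, Tnmd, Thbs4 and Tnc were lower and Prss35 was higher, 5 of 7 beside 25.7% of all genes. Thbs4 was at 16.8 TMM CPM against 190 and 230 (−3.65 ± 0.26, adjusted p = 0.00085), and Tnmd at 25.5 against 90.6 and 119 (−2.04 ± 0.22, adjusted p = 0.0017). Tnc was at 87.9 against 239 and 231 TMM CPM (−1.42 ± 0.20, adjusted p = 0.0036). Prss35 was at 54.8 against 31.6 and 33.5 (0.75 ± 0.18, adjusted p = 0.022), a level within the E14.5 controls, and it did not pass without E18.5 control 1 (adjusted p = 0.058). Scx was at 65.3 against 82.3 and 100 (−0.48 ± 0.14, adjusted p = 0.042), a small difference that did not pass without any 1 of E14.5 control 1, 2 or 3 or E18.5 control 2 (adjusted p = 0.051 to 0.10). Mkx, at 18.8 TMM CPM, was above both controls without passing (0.39 ± 0.34, adjusted p = 0.44).

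The cKO differed from E18.5 controls in tendon-rich spots and not measurably in muscle spots. In tendon-rich spots Scx, Mkx and Thbs4 were lower, 3 of 7 beside 1.9% of all genes. Scx was at 100 TMM CPM (−1.48 ± 0.29, adjusted p = 0.029), Thbs4 at 206 (−1.71 ± 0.37, adjusted p = 0.045) and Mkx at 78.4 (−1.0 ± 0.20, adjusted p = 0.034), each below both controls. Tnmd was at 723 TMM CPM, also below both (−1.44 ± 0.36), but missed the threshold (adjusted p = 0.081). Tnc, Prss35 and Bmper were at 334, 358 and 13.2 TMM CPM and did not pass. With DESeq2 the calls of Mkx (adjusted p = 0.082) and Thbs4 (adjusted p = 0.15) were lost and that of Scx remained. Scx, Mkx and Thbs4 all lost theirs without E18.5 control 1 (adjusted p = 0.068 to 0.18) and without E18.5 control 2 (adjusted p = 0.14 to 0.17), and Mkx and Thbs4 also without E14.5 control 2 or 3 (adjusted p = 0.063 to 0.084). Tnmd passed without E14.5 control 1 (adjusted p = 0.00093).

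In cKO muscle spots edgeR called 0 of the 7 genes, 0 also had an unadjusted p under 0.05 and DESeq2 called 0, while 8.81% of all genes were called. The differences ran from −0.05 ± 0.18 for Tnc to 0.41 ± 0.18 for Prss35. Tnmd at 115 and Thbs4 at 210 TMM CPM lay between the controls. The KO and the cKO share their controls, and the difference between these mutants was not tested.

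**Figure D3:**
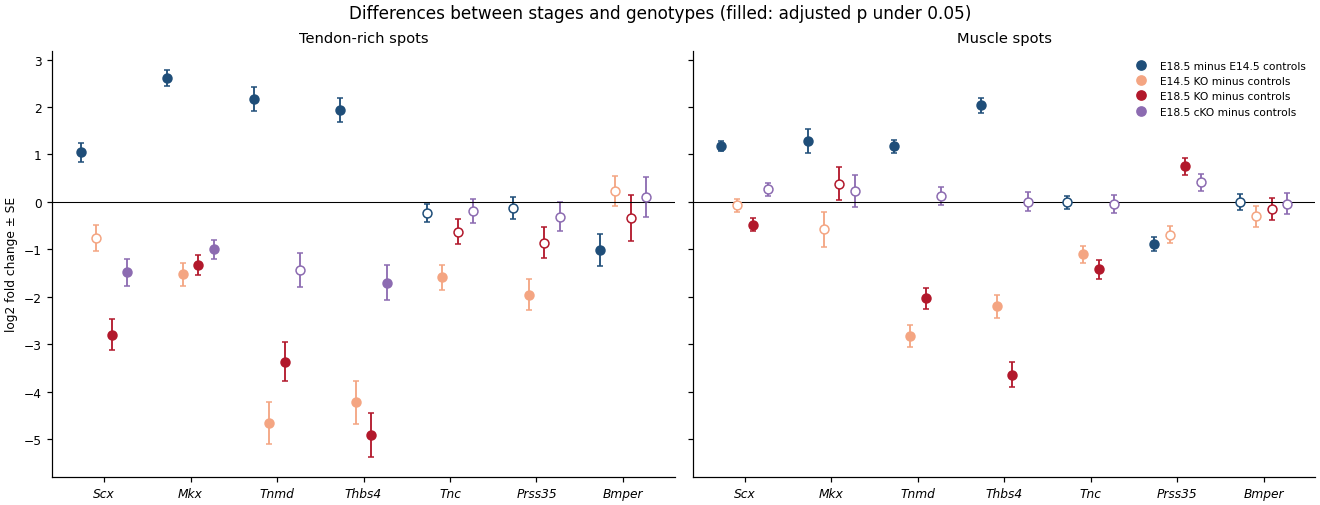
Log2 fold changes with SE of the 7 genes in tendon-rich spots and in muscle spots, with filled points for adjusted p under 0.05. They are shown between E18.5 and E14.5 controls and between mutant sections and controls of their stage. Tnmd and Thbs4 of both KO sections lie farthest below 0, and the cKO points in muscle lie close to 0.

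The tendon-rich spots themselves were not alike between stages or between genotypes, and the following values moved with the results above. Col12a1, which helped to choose the spots, was at 551, 741 and 938 raw CPM in them at E14.5 in controls and at 281 in the KO, and at E18.5 at 1149 and 1278 in controls, 433 in the KO and 646 in the cKO. All 5 tendon markers together reached 1445 to 2385 raw CPM in controls at E14.5 with the KO at 806, and 4892 and 5545 in E18.5 controls against 1932 in the KO and 2644 in the cKO. For the 9 muscle markers the E14.5 controls reached 10320, 5939 and 6120 raw CPM while the KO reached 3490, and E18.5 controls had 45932 and 36710 against 18780 in the KO and 17262 in the cKO. The 3 markers of hepatocytes, the cells of the adjoining liver, reached 1407 raw CPM in the E14.5 KO against 31.1 to 1150 in controls, and 6395 in the E18.5 KO against 703 and 3.1. The 5 mesothelium markers were at 762 in the E18.5 KO and 500 in the cKO against 336 and 195. Muscle was also a smaller share of the section, since 45% of spots lay outside it in the E14.5 KO against 14.9 to 32.5% in controls, and 38.9% and 26.9% in the E18.5 KO and cKO against 10.6 and 12.9%. In the cKO the 4 fibroblast markers were together at 1836 raw CPM against 759 and 843, and the 4 markers of the myotendinous junction were at 145 in the E18.5 KO and 189 in the cKO against 406 and 328. The 5 cartilage markers were at 52.4 in the E18.5 KO and 197 in the cKO against 627 and 727. The part of these differences in the results was not tested. Fewer tendon cells in a spot and less RNA per tendon cell cannot be told apart here.

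The mutant comparisons were also made on other choices of spots. When a mutant section had to reach the tendon threshold of its controls, a choice made after seeing the data, 54, 74 and 122 spots were left in the E14.5 KO, the E18.5 KO and the cKO. Tnmd (−3.10) and Thbs4 (−4.40) were then still called in the E14.5 KO, and Scx (−1.99), Tnmd (−1.88) and Thbs4 (−4.80) in the E18.5 KO, while Mkx (−0.99 and −1.03), Tnc and Prss35 were not, and 0 genes of the 7 were called in the cKO. Over all spots outside muscle no member passed in any mutant, but Tnmd and Thbs4 kept their direction in both KO sections, with −4.12 and −3.73 at E14.5 and −3.42 and −4.31 at E18.5.

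Across all groups, the levels in tendon-rich spots were ordered as follows. Tnmd ran from E18.5 controls through the cKO (723 TMM CPM), E14.5 controls (mean 440 ± 152, SD, n = 3) and the E18.5 KO (189) to the E14.5 KO (17.1). The cKO was above the highest E14.5 control for this gene, at 611. Thbs4 had the same order at the top, but its cKO value of 206 fell within the E14.5 controls (180 ± 69.4, n = 3), and both KO sections were near the bottom at 22.2 and 9.3. Mkx in the cKO (78.4) and the E18.5 KO (62.0) was above all E14.5 controls (26.4 ± 2.6, n = 3), and the E14.5 KO at 8.9 was below them. The change of Mkx with stage was not tested within the KO, and the cKO has no section at E14.5. Scx had the E18.5 KO at the bottom (40.2), then the E14.5 KO (80.4) and the cKO (100), with the lowest E14.5 control at 111 close above. Bmper was highest in an E14.5 control (31.4) and in the E14.5 KO (29.4), and all E18.5 sections were below all E14.5 sections.

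The genes of the tendon pathway beyond these 7 were read from 4 lists. Of 17 tendon collagens and matrix genes, 16 rose in tendon-rich spots from E14.5 to E18.5 (median 1.85 on the log2 scale against −0.01 over all genes), led by Cilp2 (0, 4 and 1 UMIs in the E14.5 controls and 40 and 55 at E18.5), the cornea and tendon proteoglycan gene Kera (4.64 ± 0.17), Lox, which crosslinks collagen (3.60 ± 0.19), and Fmod, the collagen-binding fibromodulin (3.16 ± 0.23). In the E14.5 KO 4 of them were lower (median −0.73 against 0.04), namely Cilp (−3.81 ± 0.35), Kera (−2.46 ± 0.33), Postn (−1.64 ± 0.25) and Col14a1 (−1.11 ± 0.21). In the E18.5 KO 12 were lower (median −1.38 against 0.01), with Kera at −3.97 ± 0.24, Cilp at −3.40 ± 0.29, Postn at −2.21 ± 0.27 and Fmod at −1.96 ± 0.33. In the cKO only Cilp (−1.71 ± 0.25) and Kera (−1.69 ± 0.20) of the 17 passed (median −0.80 against 0.01). Of all genes tested, 38.3% were called for the stage, 0.615% in the E14.5 KO, 5.77% in the E18.5 KO and 1.9% in the cKO.

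Among 12 signals and factors of tendon, 3 rose and 2 fell with stage in tendon-rich spots, a share near the 38.3% of all genes called, including Tgfb1 (1.15 ± 0.19), Tgfb3 (0.79 ± 0.15) and the receptor gene Tgfbr2 (0.82 ± 0.18), and Sox9, a factor of cartilage and of progenitors shared with tendon (−2.93 ± 0.36). In the E18.5 KO the homeobox gene Six2 (−2.16 ± 0.32) and the ligand gene Tgfb3 (−0.81 ± 0.21) were among those lower, and in the cKO Six2 alone (−1.32 ± 0.28). In the E14.5 KO edgeR called 0 of the 12, with 5 at an unadjusted p under 0.05 and 0 called by DESeq2. Of the 12 tested thrombospondins, tenascins and receptors, which are relatives and partners of Thbs4 and Tnc, 5 rose with stage, again near that share, including Tnxb (4.44 ± 0.21), Comp (3.75 ± 0.47), Thbs1 (2.42 ± 0.15) and Thbs2 (2.03 ± 0.19). In the E18.5 KO 4 of these 12 were lower, beside 5.77% of all genes called. Among them were Tnn (−2.47 ± 0.36), Thbs2 (−1.83 ± 0.28) and Thbs3 (−1.54 ± 0.24), and in the cKO Thbs1 was lower (−1.17 ± 0.21). Of 26 genes of the BMP pathway, the partners of Bmper, 4 rose and 3 fell with stage, a smaller share than over all genes, among them the ligand genes Bmp6 (2.13 ± 0.25) and Gdf6 (−1.60 ± 0.53) and the target Id3 (1.03 ± 0.15). In tendon-rich spots of the E14.5 KO, the E18.5 KO and the cKO edgeR called 0 of these 26, with 6, 9 and 4 at an unadjusted p under 0.05 and 0 called by DESeq2 in each.

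Where the transcripts lay was tested within sections. In E14.5 controls all 7 genes were higher outside muscle than in muscle, beside 37.3% of 15473 genes called. The difference was 2.32 ± 0.11 for Prss35 (adjusted p = 6e-05) and 2.14 ± 0.20 for Tnmd (adjusted p = 3e-04), and under 1 for Scx (0.98 ± 0.13), Thbs4 (0.74 ± 0.22) and Tnc (0.44 ± 0.14). Thbs4 and Tnc lost their call without E14.5 control 2 (adjusted p = 0.078 and 0.24), and Tnc also without control 1 (adjusted p = 0.14). At E18.5 Prss35 (2.93 ± 0.14), Tnmd (2.71 ± 0.24), Mkx (2.08 ± 0.10) and Bmper (1.54 ± 0.33) passed, 4 of 7 beside 53.2%, whereas Scx (0.39 ± 0.15), Thbs4 (0.44 ± 0.25) and Tnc (0.12 ± 0.16) did not. Bmper did not pass without E18.5 control 2 (1.17, adjusted p = 0.074), Scx passed without E14.5 control 1 or 3 (adjusted p = 0.030 and 0.022) and Thbs4 without E14.5 control 3 (adjusted p = 0.020). The contrast itself grew between stages for Mkx (0.81 ± 0.14, adjusted p = 0.0084) and Prss35 (0.62 ± 0.17, adjusted p = 0.047), 2 of 7 beside 18.6% of all genes. That of Prss35 did not pass without E14.5 control 1 or 2 or without E18.5 control 1 or 2 (adjusted p = 0.10 to 0.14), or with DESeq2 (adjusted p = 0.051).

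Muscle spots next to other tissue were then set against inner muscle. Border spots lay within 150 µm of a spot outside muscle, and inner spots at least 250 µm away. At E14.5 all 7 genes were higher at the border, beside 15% of 14092 genes, from 0.58 ± 0.11 for Tnc to 1.52 ± 0.12 for Prss35. Bmper did not pass without E14.5 control 2 (0.35, adjusted p = 0.58) or with DESeq2 (adjusted p = 0.31). At E18.5 6 of 7 were higher, beside 35.8%, and Tnc was not called (0.26 ± 0.13, adjusted p = 0.12). Bmper did not pass there with DESeq2 (adjusted p = 0.053) or without E18.5 control 2 (adjusted p = 0.10). Tnmd at the border was at 366 and 549 TMM CPM in E18.5 controls 1 and 2, and in inner muscle at 42.9 and 54.9, a difference of 3.21 ± 0.09 (adjusted p = 3.1e-13). At E14.5 it was at 65.2, 80.0 and 128 at the border and at 30.8, 27.6 and 46.3 inside (1.37 ± 0.09, adjusted p = 1.1e-07). This contrast of Tnmd steepened with stage by 1.84 ± 0.13 (adjusted p = 2.2e-07), and that of Prss35 by 0.80 ± 0.18 (adjusted p = 0.0092), 2 of 7 beside 9.05% of all genes. The change of Prss35 did not pass without E18.5 control 2 (0.38, adjusted p = 0.087) or with DESeq2 (adjusted p = 0.053). Thbs4 rose toward the border by nearly the same amount at both stages, 1.2 ± 0.11 and 1.23 ± 0.11, and its stage difference was 0.03 ± 0.15.

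With distance from other tissue, Tnmd in E18.5 muscle fell from 305 raw CPM up to 150 µm to 88.6, 42.9 and 24.7 in the next bins (up to 250, up to 350 and over 350 µm) of control 1, and from 494 to 161, 74.4 and 29.9 in control 2. The cKO had a like course, from 294 to 113, 42.6 and 33.8. In the E18.5 KO the values were 38.9, 16.8, 22.2 and 20.6, with no further fall past the first bin. Thbs4 in the E18.5 KO was flat, at 18.3, 18, 12.9 and 21.3 raw CPM, where E18.5 control 1 fell from 292 to 102 and control 2 from 443 to 118. Scx in the E18.5 KO ran the other way, from 55.9 near other tissue to 67.9, 81.6 and 87.8 in the interior, while it fell from 86.4 to 53.9 and from 140 to 60.6 in the controls. These profiles are descriptions of single sections and were not tested.

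Within tendon-rich spots, the central ones (those whose distance to the convex outline exceeded the median) were set against the peripheral ones. In E14.5 controls all 7 genes differed between both positions, beside 7.57% of 12743 genes, and they fell into opposite groups. The authors had reported from the same sections that Tnmd marks central tendon and that Tnc and Thbs4 are more peripheral. Since the 7 genes were chosen with earlier results of these data known, their count is no independent support. Tnmd (2.75 ± 0.14, adjusted p = 5.6e-13), Prss35 (2.34 ± 0.21, adjusted p = 1.5e-08), Mkx (2.13 ± 0.22, adjusted p = 1.5e-07) and Scx (0.88 ± 0.14, adjusted p = 0.00012) were higher centrally. Bmper (−2.99 ± 0.27, adjusted p = 2.6e-08), Tnc (−2.23 ± 0.10, adjusted p = 1.6e-13) and Thbs4 (−1.42 ± 0.30, adjusted p = 0.0021) were higher peripherally. Prss35 was at 753, 731 and 999 TMM CPM in central spots and at 189, 61.1 and 378 in peripheral spots of controls 1, 2 and 3. Mkx was at 44.1, 46.1 and 40.9 against 12.6, 6.2 and 17.9. Both genes were higher centrally in each of the 3 sections. Thbs4 was not so uniform, with 109 against 107 TMM CPM in control 1, 68.5 against 289 in control 2 and 47.7 against 443 in control 3, so that control 1 showed no difference. DESeq2 did not call Thbs4 here (adjusted p = 0.42). Sox9, at −2.54 ± 0.17, and the BMP pathway genes Bmp5 (−1.75 ± 0.41), Gdf6 (−1.72 ± 0.33), Tll1 (−1.63 ± 0.34) and Id4 (−1.60 ± 0.25) were higher peripherally like Bmper, and Kera (3.31 ± 0.31), Six2 (2.32 ± 0.28) and Fmod (2.05 ± 0.13) centrally like Tnmd. In central spots, 3 of 3 hepatocyte and 3 of 3 erythrocyte markers tested were also higher, and 4 of 5 mesothelium markers were lower, and their part in the result was not tested.

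At E18.5 the same split gave no member past the threshold in controls: edgeR called 0 of 7, with 4 at an unadjusted p under 0.05 and 0 called by DESeq2, and 0.0706% of all genes were called. Tnmd was at 2216 and 1319 TMM CPM in central and at 2344 and 1966 in peripheral spots, Prss35 at 450 and 467 against 472 and 392, and Tnc at 377 and 316 against 410 and 423. Thbs4 was lower centrally in both sections, at 634 and 370 against 687 and 997 (−0.76 ± 0.30), and it passed without E14.5 control 1 (adjusted p = 0.0056) or control 2 (adjusted p = 0.019). Scx passed without E18.5 control 1 (−0.89, adjusted p = 0.033). The difference between the stages was past the threshold for Tnmd (−3.07 ± 0.20, adjusted p = 3.8e-10), Tnc (1.96 ± 0.16), Bmper (3.29 ± 0.53), Prss35 (−2.25 ± 0.32), Mkx (−2.01 ± 0.28) and Scx (−1.24 ± 0.22), 6 of 7 beside 2.37% of all genes. DESeq2 called 4 of the 7, without Prss35 (adjusted p = 0.41) and Scx (adjusted p = 0.18). Scx did not pass without E18.5 control 2 (−0.69, adjusted p = 0.16), and Thbs4 passed without E14.5 control 1 (1.58, adjusted p = 1.6e-05). In the larger E18.5 sections both kinds of tendon-rich spots lie around the central opening, so that the split does not mark the same anatomy as at E14.5.

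**Figure D4:**
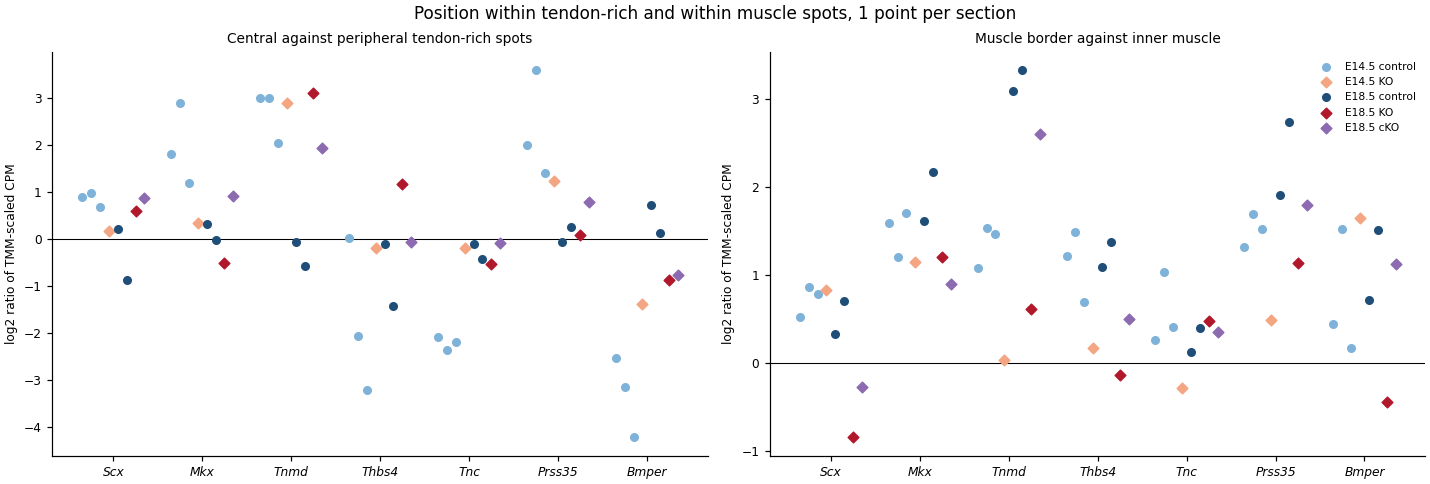
Log2 ratios of TMM CPM of the 7 genes, with a point for each section. One panel sets central against peripheral tendon-rich spots and the other muscle border against inner muscle. In E14.5 controls the ratios of central to peripheral spots are positive for Tnmd, Mkx and Prss35 and negative for Tnc and Bmper. In E18.5 controls most of these ratios are small.

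The KO at E14.5 kept the central excess of Tnmd at a low level, with 39.7 TMM CPM in central and 5.4 in peripheral spots, and its contrast differed from that of the controls by 0.11 ± 0.39. Tnc lost its peripheral excess, at 134 central and 155 peripheral TMM CPM against 163, 160 and 116 and 692, 830 and 532 in controls, a difference in contrast of 2.03 ± 0.20 (adjusted p = 9.3e-07). It was the only member called, 1 of 7 beside 1.08% of all genes. Thus central Tnc was within the control range in the KO, and peripheral Tnc was not. Mkx (−1.81 ± 0.49, adjusted p = 0.076), Bmper (1.61 ± 0.47, adjusted p = 0.11) and Prss35 (−1.11 ± 0.40, adjusted p = 0.31) had smaller contrasts than the controls without passing, and Mkx (adjusted p = 0.015) and Prss35 (adjusted p = 0.014) passed without E14.5 control 1. The outline of this KO section encloses separate pieces of tissue, which changes what central means in it.

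At E18.5 both mutants had a central excess of Tnmd that their controls lacked. In the KO it was at 316 TMM CPM centrally and 36.8 peripherally, a difference in contrast of 3.43 ± 0.32 (adjusted p = 1.3e-06), and Tnmd was the only member called, 1 of 7 beside 0.204% of all genes. In the cKO it was at 1042 centrally and 275 peripherally (2.25 ± 0.25, adjusted p = 1.6e-05), again 1 of 7, beside 0.259%. The KO result turned to −0.81 (adjusted p = 0.93) when distance was taken to the nearest position without tissue, so that it depends on how centre is defined. Scx in the cKO (1.23 ± 0.29, adjusted p = 0.086) passed without E14.5 control 1, E14.5 control 2 or E18.5 control 1 (adjusted p = 0.00091 to 0.0083).

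How the genes varied together was described across the kept spots of each section, as Pearson r of log-normalized UMIs, without tests because spots of a section share their library, depth and neighbours. Tnmd and Prss35 had the highest r of all pairs at E14.5, 0.65 as mean over the 3 controls, and 0.62 over the E18.5 controls, but 0.26 and 0.27 in the KO at E14.5 and E18.5 and 0.42 in the cKO. Tnmd and Thbs4 were at 0.20 at E14.5 and 0.58 at E18.5, and the cKO was at 0.47, while the KO sections were at 0.02 and 0.10. Tnmd and Mkx went from 0.45 to 0.64. Tnc was weakly opposed to Tnmd at E14.5 (−0.16) and weakly positive at E18.5 (0.28). Both KO sections have few UMIs of Tnmd and Thbs4, and the part of this in the low r was not tested.

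**Figure D5:**
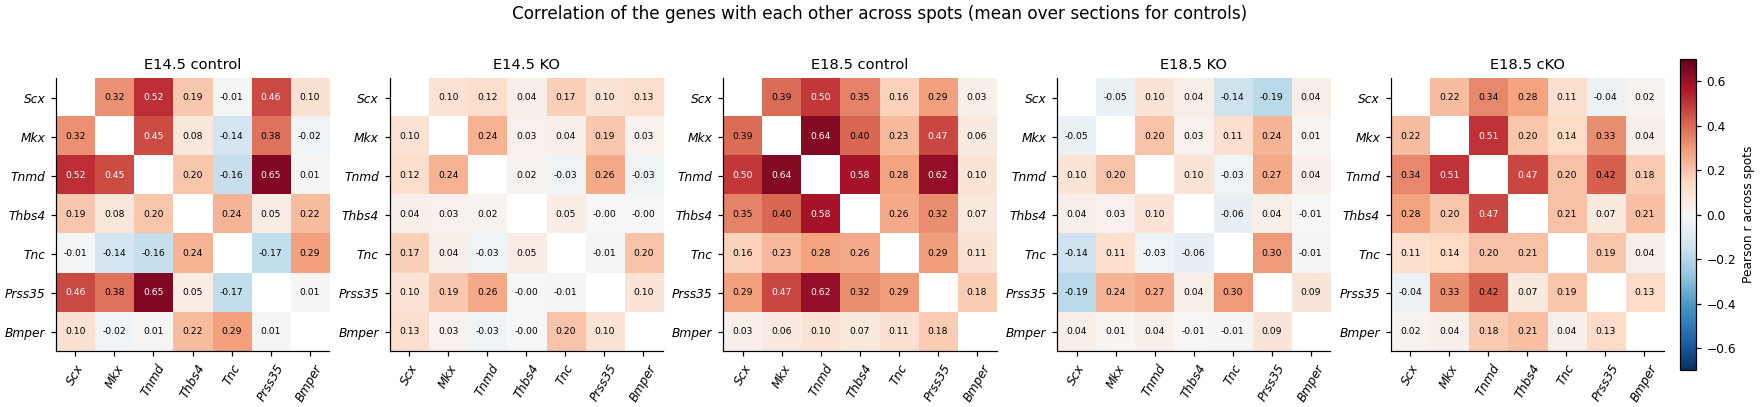
Pearson r across spots for the pairs of the 7 genes, as mean over the sections of each group. Tnmd, Prss35, Mkx and Scx form the block of highest r in E14.5 controls. In E18.5 controls r of Thbs4 with Tnmd (0.58) is above that of Scx with Prss35 (0.29). The r of Thbs4 with Tnmd is higher in E18.5 controls and in the cKO than in the KO sections.

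The genes most like each member over the 5 control sections were taken from 10185 genes with enough UMIs. For Tnmd, Mkx, Scx and Prss35 they were led by Fmod or type I collagen genes. Fmod, Col1a1 and Col1a2 were nearest to Tnmd (mean r of 0.74, 0.71 and 0.70), to Mkx (0.50, 0.47 and 0.46) and to Scx (0.47, 0.45 and 0.45). Prss35 was nearest to Col1a1 (0.72), Col1a2 (0.72) and Col5a2 (0.66), with r between 0.70 and 0.74 in every control for Col1a1. Thbs4 was nearest to Postn (0.47), C1qtnf3 (0.45) and Col12a1 (0.43). Tnc was nearest to Col6a3 (0.32), Dpysl3 (0.32) and Fn1 (0.31), and Bmper to Sox9 (0.32), Wnt5a (0.28) and Dpysl3 (0.27), weak values that ranged from 0.12 to 0.66 between sections for Sox9.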

How the data were processed

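Diaphragm sections of 5 µm from 8 embryos were measured with probe-based 10x Visium. The authors made the deposited values, raw counts of UMIs per gene and spot, with Space Ranger (2.0.0 for E14.5 controls 1 and 2 and the E14.5 KO, 2.0.1 for the rest, per the file headers), the mouse probe set 1.0 and mm10, without normalization. Deposited spatial scores and image scale factors were not used. Spots with at least 1000 UMIs were scaled to 10000 UMIs and natural-log transformed for scores. Muscle spots exceed the Otsu threshold of the section for the mean of Acta1, Actn2, Des, Myl1, Mylpf, Neb, Ryr1, Tnnt3 and Ttn. Tendon-rich spots exceed that of Col12a1, Col11a1 and Antxr1 outside muscle, with a mean of Col2a1, Col9a1 and Col9a3 of at most 1. Central spots were those whose distance to the convex hull exceeded the median. UMIs were summed per section and region and tested with edgeR 4.0.16 (filterByExpr, TMM, quasi-likelihood test), with Benjamini-Hochberg adjustment and a threshold of 0.05. The section was a block where regions of a section were compared, since these share an embryo. Genes that define a region were not tested. For mutant groups of 1 section the spread of the controls was used. Totals per section ran from 14179161 to 82859104 UMIs, and errors between sections come from the controls alone. Control replicates are separate diaphragms and differed beyond sampling noise. The scripts were tested on simulated data. DESeq2 1.42.0, other spot rules, filters and left-out controls were alternatives. The members and lists were chosen with earlier results of these data known. All members, the 3 genes most like each and up to 4 called genes of a list with the largest change were named.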

Additional observations from a re-analysis of the deposited data

Results flagged for a closer look

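Differences between groups in the position of a gene, tested as interactions in edgeR, were past the threshold as follows. Between stages of controls, the contrast of spots outside muscle with muscle changed by 0.81 (log2) for Mkx and 0.62 for Prss35, and that of muscle border with inner muscle by 1.84 for Tnmd and 0.80 for Prss35. The contrast of central with peripheral tendon-rich spots changed between stages by −1.24 for Scx, −2.01 for Mkx, −3.07 for Tnmd, 1.96 for Tnc, −2.25 for Prss35 and 3.29 for Bmper. Against controls of the stage, it differed by 2.03 for Tnc in the E14.5 KO, and for Tnmd by 3.43 in the E18.5 KO and 2.25 in the cKO.

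In further cases a mutant section lay on the other side of 0 than every control section of its stage, and the difference was not tested. For the log2 ratio of spots outside muscle to muscle, positive for the gene named in each control of the stage, this held in the E14.5 KO for Thbs4 (−0.69) and Tnc (−0.22), in the E18.5 KO for Scx (−1.35) and Thbs4 (−0.14), and in the cKO for Scx (−1.36) and Thbs4 (−0.84). In both E18.5 mutants Scx was thus lower outside muscle than in it. For Tnc the ratio in E14.5 control 3 was 0.0025, so that this control showed hardly any difference. For the ratio of muscle border to inner muscle it held in the E14.5 KO for Tnc (−0.28), in the E18.5 KO for Scx (−0.84), Thbs4 (−0.14) and Bmper (−0.45), and in the cKO for Scx (−0.28).

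A mutant section was below every control of its stage in tendon-rich spots and above every one in muscle spots for Mkx (a difference of −1.72 between both log2 fold changes) and Prss35 (−1.62) in the E18.5 KO and for Scx (−1.75) and Prss35 (−0.72) in the cKO. Genes whose fold changes differ in sign while the section lies among the controls in 1 kind of spots are not listed. These differences were not tested either.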

How the results depend on the processing

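Each comparison was recomputed under 10 to 15 alternatives. Of 1757 alternative values of the 7 genes, 1606 kept their side of the threshold, 108 lost their call, 42 gained one and 1 called value turned, Tnmd in the E18.5 KO minus controls, central minus peripheral, at −0.81 with distance to uncovered positions. Of the 790 among the 1606 that were called in neither, 57 had the other sign. The cause was not tested for any change below.

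Counts of called members moved by over 1.5 times as follows. For outside muscle minus muscle, stage difference (2), DESeq2 size factors and DESeq2 gave 1, no section block 0 and left-out controls 1 to 2. For central minus peripheral spots in E18.5 controls (0), no filter on low counts and the top 25% rule gave 1, and left-out controls 0 to 1. For its stage difference (6), no section block gave 2. In the E14.5 KO (1), no filter, other muscle genes and kept cartilage each gave 3, no section block 0 and left-out controls 1 to 3. In the E18.5 KO (1), no filter gave 2, and no section block and distance to uncovered positions 0. In the cKO (1), no filter and the top 25% rule gave 2, no section block 0 and left-out controls 1 to 2. For border minus inner muscle, no section block gave 0 at E14.5 (7) and 0 for the stage difference (2), which was 1 with DESeq2 and 1 to 2 with left-out controls. In tendon-rich spots, all spots outside muscle gave 3 for the stage (5), 0 in the E14.5 KO (5), 0 in the E18.5 KO (4) and 0 in the cKO (3). The threshold of the controls gave 2 in the E14.5 KO and 0 in the cKO, and kept cartilage 2 and 0. DESeq2 gave 1 in the cKO. Left-out controls gave 3 to 6 in the E14.5 KO and 0 to 4 in the cKO. The rules with all spots outside muscle and with the threshold of the controls were added after seeing the data.

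Counts over all genes moved more. Left-out controls gave 22 to 407 genes in tendon-rich spots of the E14.5 KO (83), 274 to 1594 in the E18.5 KO (779) and 42 to 737 in the cKO (257), and 65 to 391 in muscle of the E14.5 KO (308), where DESeq2 gave 689. Other alternatives ran from 0 to 310, 16 to 1299 and 133 to 559 in these tendon-rich comparisons. They ran from 178 to 1173 for central minus peripheral at E14.5 (965), from 0 to 77 at E18.5 (9), from 13 to 515 for its stage difference (302), and from 0 to 286, 1 to 102 and 1 to 94 in the E14.5 KO (138), the E18.5 KO (26) and the cKO (33). For border minus inner muscle they ran from 27 to 2389 at E14.5 (2108), 1996 to 5300 at E18.5 (5051) and 20 to 1727 for the stage difference (1276). For outside muscle minus muscle, left-out controls gave 3094 to 6045 at E14.5 (5778) and other alternatives 1568 to 3039 for the stage difference (2882). Left-out E14.5 or E18.5 controls gave 3046 to 4781 for the stage in tendon-rich spots (5170) and 576 to 1451 in cKO muscle (1306).

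E14.5 and E18.5 controls share the numbers 1 and 2 only as names, and their deviations correlated at −0.10 in tendon-rich and −0.35 in muscle spots. A replicate block called 6 members for the stage in tendon-rich spots (Tnc at −0.41 added) and 5 in muscle, and 5882 and 8963 genes. Sections come from different embryos, so stages and genotypes could not be paired, while regions of a section were compared within it. Mutants have 1 section each. Their comparisons rest on 3 residual degrees of freedom from the controls and on spread that edgeR shares across genes. Low UMI counts limit Bmper and Mkx, and Tnmd and Thbs4 in the KO.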

Other observations

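In muscle spots of the E18.5 KO, where 25.7% of all genes were called, 6 of 17 tendon collagens and matrix genes were lower in the test of edgeR, a share not far from that of all genes. They were led by Kera (−2.60 ± 0.61) and Cilp (−1.62 ± 0.22), with Postn at −1.22 ± 0.17 and Col5a1 at −0.75 ± 0.16. Of the 12 tested thrombospondins, tenascins and receptors 5 were lower and 1 was higher, with Tnxb at −2.09 ± 0.28, Tnn at −1.63 ± 0.22 and Thbs3 at −0.93 ± 0.12. Sox9 was higher in this muscle (1.1 ± 0.28), as were Smad9 (2.27 ± 0.31) and Id4 (1.0 ± 0.29), an intracellular carrier and a target of BMP signals, while Acvr1 (−0.76 ± 0.14) and Smad1 (−0.61 ± 0.10) were lower. In E14.5 KO muscle Cilp (−1.75 ± 0.25), Thbs2 (−0.80 ± 0.15) and Thbs3 (−0.64 ± 0.12) were lower.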
